A study of Homo sapiens with 22 samples.

Results

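FOXM1, MYBL2, TROAP and WDR62 are 4 of the 37908 genes counted by RNA-seq in H1299, an established line of human non-small cell lung carcinoma. FOXM1, TROAP and WDR62 were chosen by a measured value, the difference between BRCA2-deficient and BRCA2-proficient control siRNA cells in their response to a GSK3 inhibitor, and MYBL2 was added because its product, B-MYB, is a partner of FOXM1. In all cells a BRCA2 shRNA could be switched on with doxycycline (DOX), so that depletion is a knockdown in 1 line. Cells that got no DOX (BRCA2-proficient) were set against cells kept in DOX (2 µg/mL, 3 days) to make them BRCA2-deficient, each transfected with AllStars control siRNA or siβ-catenin, and each left without inhibitor or treated with 250 nM LY2090314 (GSK3i) for 24 h. This gave 8 groups and 22 libraries of 18.9 to 29.3 M counts each, with 3 libraries per group except for 2 in untreated and in siβ-catenin BRCA2-proficient cells. Below, "untreated" means control siRNA without GSK3i. DOX and BRCA2 depletion always went together, so their effects cannot be told apart, and RNA from fewer cells in a phase of the cell cycle and less RNA per cell cannot be told apart in bulk libraries.

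FOXM1 is a forkhead transcription factor that drives late cell cycle genes. B-MYB joins the MuvB core at the promoters of those genes and recruits FOXM1, while the same core with the pocket proteins p107 or p130 and E2F4 or E2F5 forms the repressive DREAM complex of resting cells. TROAP encodes tastin, a microtubule-associated protein of the mitotic spindle that binds trophinin and bystin. WDR62 encodes a spindle pole protein and scaffold of the JNK kinases, and its loss causes primary microcephaly. GSK3 marks β-catenin for degradation, so that its inhibition stabilises β-catenin and turns on TCF/LEF target genes such as AXIN2.

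On GRCh37, FOXM1 (ENSG00000111206) lies on the minus strand at chr12:2966846-2986340 and TROAP (ENSG00000135451) on the plus strand at chr12:49717019-49725514. MYBL2 (ENSG00000101057) is on the plus strand at chr20:42295659-42345135 and WDR62 (ENSG00000075702) on the plus strand at chr19:36545551-36596010. All 4 are protein-coding. The promoters of WDR62 and MYBL2 (RefSeq, GRCh38.p14, plus strand, 250 bases before to 50 after the start) are shown because both genes rose with GSK3i in BRCA2-deficient cells. They lie at chr19:36054647-36054946 and chr20:43666864-43667163. Capitals mark matches on either strand to 6 motifs that were searched, namely the cell cycle homology region TTTGAA, the E2F core GCGGGA, the motif CCAAT, a forkhead motif TGTTTA, a MYB motif AACNGNC and the TCF/LEF motif ATCAAAG.
WDR62: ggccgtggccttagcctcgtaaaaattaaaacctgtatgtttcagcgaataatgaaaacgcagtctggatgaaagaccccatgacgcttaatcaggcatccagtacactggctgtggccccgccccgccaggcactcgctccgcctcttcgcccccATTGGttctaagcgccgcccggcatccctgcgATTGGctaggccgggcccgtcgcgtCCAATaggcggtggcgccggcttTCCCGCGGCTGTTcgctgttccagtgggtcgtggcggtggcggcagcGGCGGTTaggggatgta
MYBL2: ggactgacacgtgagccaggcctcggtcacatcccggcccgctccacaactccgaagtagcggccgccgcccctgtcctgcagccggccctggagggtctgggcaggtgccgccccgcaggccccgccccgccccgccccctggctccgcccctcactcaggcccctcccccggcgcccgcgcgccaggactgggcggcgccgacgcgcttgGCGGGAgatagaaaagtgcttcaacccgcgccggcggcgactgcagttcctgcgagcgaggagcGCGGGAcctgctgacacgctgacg

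The WDR62 window held 3 CCAAT matches, 1 E2F core match that starts 14 bases upstream of the gene's start, and 2 MYB matches, the first of which adjoins the E2F core so that their capitals run together. The MYBL2 window held 2 E2F core matches, 1 upstream and 1 downstream of the start, and none to the other motifs. Of 35116 promoters of this length, 26.9% held the E2F core, 34.6% CCAAT, 32.2% the MYB motif, 15.2% TTTGAA, 12.3% the forkhead motif and 2.6% the TCF/LEF motif. FOXM1 and TROAP had no entry among these promoters.

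The labels were checked first. BRCA2 read 513.6 to 1111 normalised counts (counts divided by each library's size factor) in BRCA2-proficient libraries and 71.4 to 225.3 in BRCA2-deficient ones, with no overlap. CTNNB1, which encodes β-catenin, read 5206 to 8669 after control siRNA and 976.8 to 2217 after siβ-catenin. The line's markers were present (KRT8 at 2040 or more, KRT18 at 5070 or more and VIM at 12600 or more), while the blood, liver and endothelial markers PTPRC, ALB, APOA1 and VWF stayed at 13.6 or less. Each library was then placed on a scale set by 463 genes that GSK3i lowered in both BRCA2 states after control siRNA, where 0 is the untreated mean and 1 the GSK3i mean. On this scale the library labelled BRCA2-proficient siβ-catenin replicate 2 stood at 0.79, although its label names no GSK3i. The library labelled BRCA2-proficient GSK3i plus siβ-catenin replicate 2 stood at -0.02, against 0.78 and 0.81 for the other replicates of its group. Replicate 3 of BRCA2-proficient siβ-catenin was intermediate at 0.32. PDCD4, 1 of the lowered genes, read 290.9 in the first of these libraries, 1998 in the second and 1056 in the third, against 1597 to 1847 in untreated and 129.3 to 163.5 in GSK3i-treated BRCA2-proficient cells. These libraries keep their labels below, and each tested comparison of the 4 genes that uses the 2 replicate 2 libraries is given with and without them. Without them, only replicate 3 is left of BRCA2-proficient siβ-catenin cells without GSK3i. Levels, group means and likeness between genes are given with every library as labelled.

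**Figure D1:**
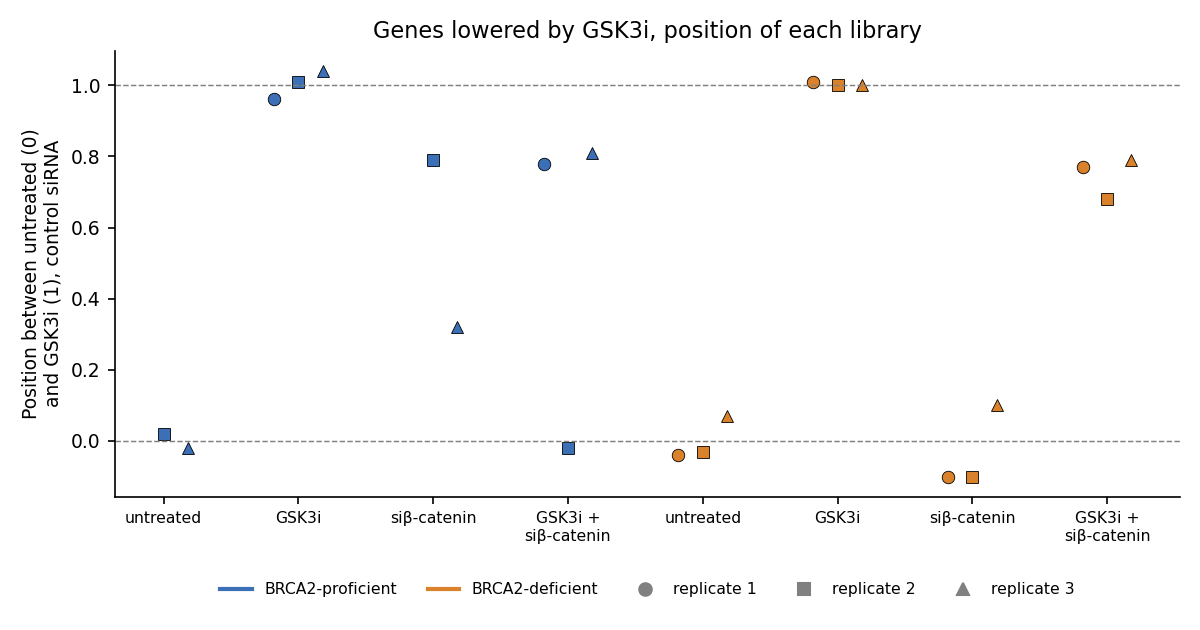
Position of each library (y axis, no unit) on the scale set by 463 genes lowered by GSK3i, where 0 is the mean of untreated and 1 the mean of GSK3i-treated control siRNA cells of the same BRCA2 status, by group (x axis; blue, BRCA2-proficient; orange, BRCA2-deficient; marker shape, replicate). The replicate 2 squares of the BRCA2-proficient siβ-catenin groups stand at 0.79 without and at -0.02 with GSK3i in the label.

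FOXM1 was detected in every library, from 2400 to 9710 normalised counts. In BRCA2-proficient cells FOXM1 read 7875 and 7757 in untreated libraries and 9042, 8631 and 8956 with GSK3i. The siβ-catenin libraries were at 8606 and 8871 without GSK3i and at 9278, 7873 and 9706 with it, the middle value being that of the doubted replicate 2. The untreated libraries were the lowest in this background, but for replicate 2 of GSK3i plus siβ-catenin, which lay between them.

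In BRCA2-deficient cells FOXM1 read 3770, 3728 and 4462 in untreated libraries and 7502, 7253 and 6975 with GSK3i, so every treated library lay above every untreated one. With siβ-catenin the values were 3325, 2399 and 4698 without GSK3i and 5871, 5305 and 6716 with it, again without overlap. Replicate 3 of BRCA2-deficient siβ-catenin was the highest of its group for all 4 genes. Ranked by group mean, the 4 BRCA2-proficient groups came first, from 8952 ± 959 (SD, n = 3) to 7816 ± 83.4 (SD, n = 2). The BRCA2-deficient GSK3i group (7243 ± 264, SD, n = 3) followed, then GSK3i plus siβ-catenin (5964 ± 710, SD, n = 3). The untreated (3987 ± 412, SD, n = 3) and siβ-catenin (3474 ± 1160, SD, n = 3) BRCA2-deficient groups came last. Their libraries overlapped, as did those of the 3 highest groups, whereas the other neighbours in this order did not overlap.

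MYBL2 varied most of the 4 genes (5.46-fold), from 2080 to 11400 normalised counts over the 22 libraries. In BRCA2-proficient cells it read 6293 and 6298 untreated, and 10519, 9819 and 8821 with GSK3i. Its siβ-catenin libraries were at 9009 and 7445 without GSK3i and at 10338, 6895 and 9562 with it. The high value of the first group and the low value of the second were those of the 2 doubted libraries. In BRCA2-deficient cells MYBL2 read 4202, 3791 and 4684 untreated and 11359, 9027 and 8531 with GSK3i. With siβ-catenin it read 3577, 2079 and 5573 without GSK3i and 8594, 6788 and 8263 with it. The GSK3i groups of both backgrounds overlapped at the top of the order, while untreated and siβ-catenin BRCA2-deficient cells lay below every other group.

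TROAP ranged from 533 to 2020 normalised counts and was the only one of the 4 with a lower mean in GSK3i-treated than in untreated BRCA2-proficient cells. It read 1913 and 1914 untreated and 1518, 1632 and 1521 with GSK3i in this background. After siβ-catenin it read 1600 and 1756 without GSK3i and 1615, 2018 and 1689 with it. In BRCA2-deficient cells TROAP read 959, 915 and 1005 untreated and 1347, 1310 and 1363 with GSK3i. With siβ-catenin it read 637, 533 and 1185 without GSK3i and 1005, 1174 and 1414 with it, so that these 2 groups overlapped through replicate 3 of the first. All BRCA2-proficient libraries lay above all BRCA2-deficient ones for this gene.

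WDR62 ranged from 2080 to 7070 normalised counts. In BRCA2-proficient cells it read 5539 and 5276 untreated and 6385, 7073 and 6157 with GSK3i. After siβ-catenin it read 5959 and 5575 without GSK3i and 5863, 5728 and 6167 with it. In BRCA2-deficient cells it read 2872, 3091 and 3418 untreated and 6110, 6673 and 6585 with GSK3i. After siβ-catenin it read 2428, 2079 and 3989 without GSK3i and 4968, 5502 and 5919 with it. The BRCA2-deficient groups given GSK3i thus overlapped BRCA2-proficient groups, and the 2 groups not given it lay apart below all others.

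**Figure D2:**
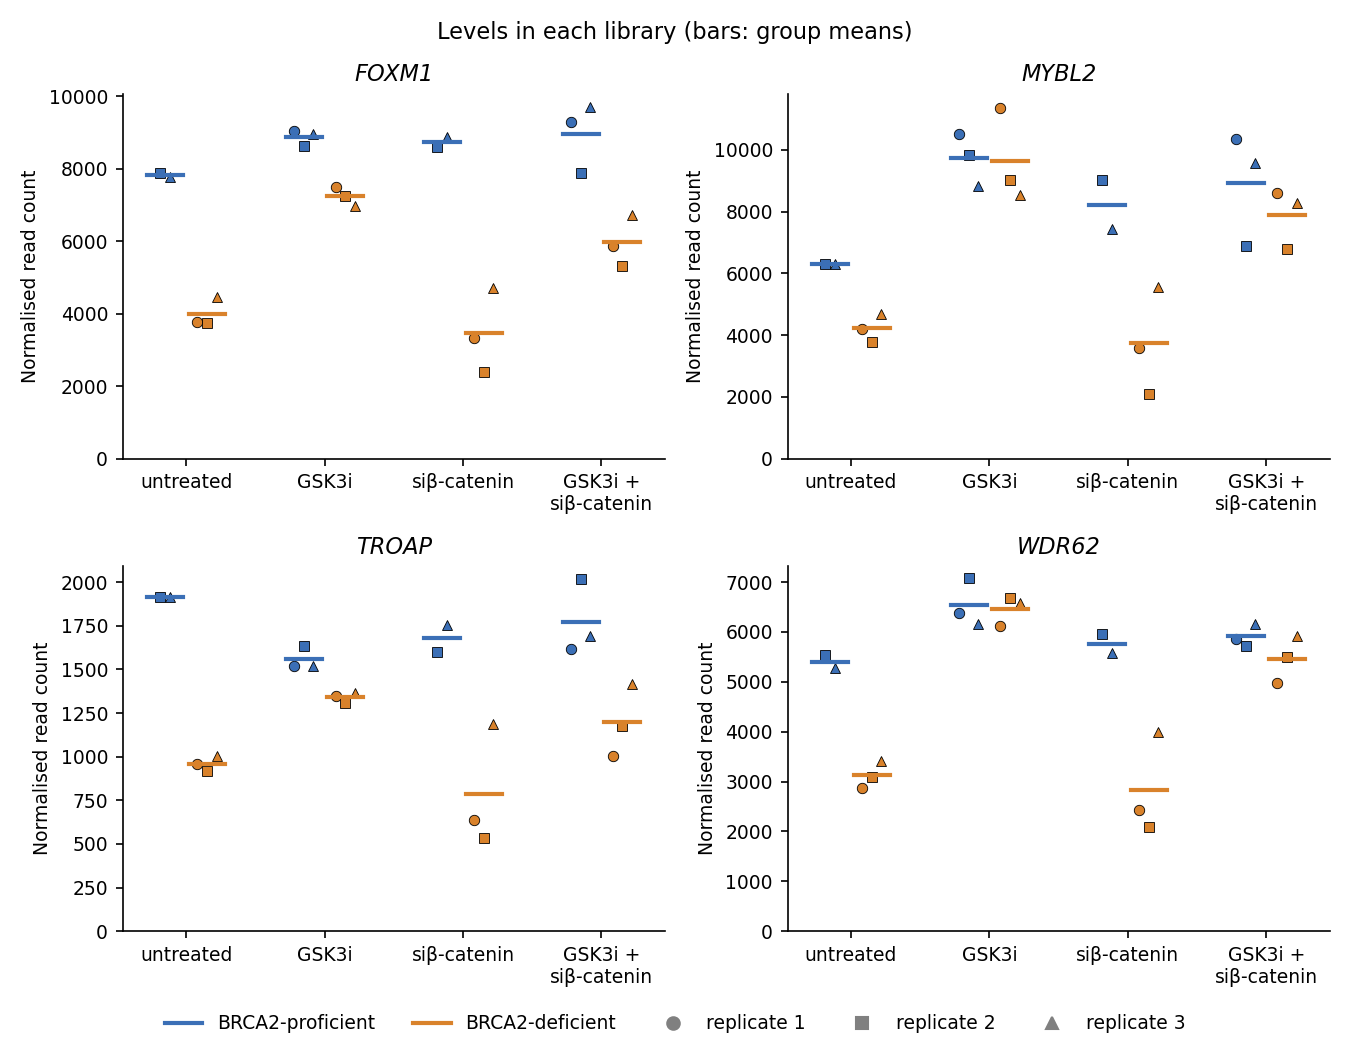
Normalised counts (y axis, linear from 0) of FOXM1, MYBL2, TROAP and WDR62 in each of the 22 libraries by group (x axis; blue, BRCA2-proficient; orange, BRCA2-deficient; bars, group means; marker shape, replicate). In BRCA2-deficient cells the groups without GSK3i are the lowest for FOXM1, MYBL2 and WDR62, and TROAP is lower in every BRCA2-deficient than in every BRCA2-proficient library.

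The first comparison was the response to GSK3i after control siRNA, which chose FOXM1, TROAP and WDR62, whose values are therefore given without a test. In BRCA2-proficient cells the log2 fold change with GSK3i was 0.17 ± 0.12 (SE) for FOXM1, -0.31 ± 0.13 for TROAP and 0.26 ± 0.13 for WDR62. In BRCA2-deficient cells it was 0.86 ± 0.14, 0.48 ± 0.14 and 1.04 ± 0.14. The difference between the backgrounds (the interaction term) was 0.68 ± 0.15, 0.78 ± 0.13 and 0.77 ± 0.16. A gene was called when its DESeq2 adjusted p-value was below 0.05 and its log2 fold change exceeded 0.5 in size. By this rule 6 of 17381 genes (0.0345%) were called for the interaction, and the 3 members were among them by construction. FOXM1 and RPL26P30 (3.33) shared the largest adjusted p-value among the called genes, and DCLK1 (-1.55) and LINC01293 (1.26) were the nearest genes outside the threshold.

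MYBL2 rose with GSK3i in both backgrounds, 1.53-fold in BRCA2-proficient cells (log2 fold change 0.61 ± 0.13, DESeq2 adjusted p = 1.94e-05) and 2.28-fold in BRCA2-deficient cells (1.19 ± 0.18, DESeq2 adjusted p = 8.55e-10). In both backgrounds every treated library was above every untreated one. Of all genes tested, 26.1% and 25.4% were called in these comparisons, 11.8% and 11.6% as higher. The difference between the backgrounds was 0.56 ± 0.21 and did not pass the test (DESeq2 adjusted p = 0.994). In 1 DESeq2 model over all 8 groups the response in BRCA2-proficient cells was 0.63 and did not pass (adjusted p = 0.0721).

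In siβ-catenin cells, whose libraries did not enter the choice of the genes, all 4 could be tested. AXIN2, the β-catenin target gene, read 1027 to 1747 normalised counts with GSK3i after control siRNA, 73.14 to 227.1 with GSK3i after siβ-catenin, and 59.5 to 96.91 without GSK3i. In BRCA2-deficient siβ-catenin cells, GSK3i raised MYBL2 2.11-fold (log2 fold change 1.08 ± 0.27, DESeq2 adjusted p = 0.000756), WDR62 1.93-fold (0.95 ± 0.22, adjusted p = 0.000253) and FOXM1 1.72-fold (0.78 ± 0.22, adjusted p = 0.00332). TROAP had a log2 fold change of 0.61 ± 0.26 (95% interval 0.10 to 1.12) and did not pass (DESeq2 adjusted p = 0.0692). The replicate numbers paired the libraries of this comparison, and with the replicate as a block TROAP passed (0.68 ± 0.16, DESeq2 adjusted p = 0.00011), as did the other 3. Of 17610 genes 20.1% were called, 8.56% as higher. MYBL2, WDR62, FOXM1 and TROAP had a larger log2 fold change than all but 1.91%, 2.9%, 5.01% and 8.92% of the genes tested.

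The BRCA2-deficient siβ-catenin library that stood highest, replicate 3, lowered these values. Without it, the log2 fold changes were 1.06 ± 0.19 for FOXM1, 1.48 ± 0.23 for MYBL2, 1.04 ± 0.20 for TROAP and 1.28 ± 0.17 for WDR62, and all 4 passed, with DESeq2 adjusted p = 7.34e-06 for TROAP as the largest. Without replicate 2 of the same group, the lowest for all 4 genes, they were 0.58 for FOXM1, 0.79 for MYBL2, 0.40 for TROAP and 0.77 for WDR62, and all but TROAP passed (DESeq2 adjusted p = 0.315 for TROAP). The MYBL2 call was lost without replicate 1 (DESeq2 adjusted p = 0.148) or replicate 3 (adjusted p = 0.15) of GSK3i plus siβ-catenin.

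In BRCA2-proficient siβ-catenin cells none of the 4 genes passed, with log2 fold changes of 0.04 for FOXM1 (95% interval -0.30 to 0.39), 0.13 for MYBL2 (-0.34 to 0.59), 0.09 for TROAP (-0.29 to 0.47) and 0.05 for WDR62 (-0.25 to 0.35), all with DESeq2 adjusted p = 1. Only 9 of 17010 genes (0.0529%) were called here, with the 2 doubted libraries kept as labelled. Without the 2 libraries that went against their labels, only replicate 3 was left without GSK3i, which stood at 0.32 on the scale of lowered genes. Effect sizes alone are given for that fit. MYBL2 then had a log2 fold change of 0.42 ± 0.13, FOXM1 of 0.10 ± 0.12, TROAP of -0.09 ± 0.16 and WDR62 of 0.11 ± 0.13, all below the fold required.

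The difference between BRCA2-deficient and BRCA2-proficient siβ-catenin cells in the response to GSK3i was 0.75 ± 0.33 for FOXM1 (DESeq2 adjusted p = 0.224), 0.96 ± 0.43 for MYBL2 (adjusted p = 0.231), 0.53 ± 0.39 for TROAP (adjusted p = 0.49) and 0.91 ± 0.32 for WDR62 (adjusted p = 0.138). None passed, and 0.439% of 18002 genes were called. Without the 2 doubted libraries the differences were 0.68 ± 0.37, 0.65 ± 0.46, 0.69 ± 0.44 and 0.83 ± 0.37 in the same order. They are effect sizes only, because replicate 3 alone was then left of BRCA2-proficient siβ-catenin cells without GSK3i. Without replicate 3 of BRCA2-deficient siβ-catenin all 4 passed, with 1.03 ± 0.27 for FOXM1 (DESeq2 adjusted p = 0.0221), 1.36 ± 0.36 for MYBL2 (adjusted p = 0.0201), 0.96 ± 0.28 for TROAP (adjusted p = 0.048) and 1.24 ± 0.22 for WDR62 (adjusted p = 5.06e-05), while 1.04% of genes were called. Without replicate 2 of the same group, the lowest of that group for all 4 genes, the differences were 0.54, 0.67, 0.32 and 0.73 in the same order and none passed. The calls thus depended on which library was left out. The differences after siβ-catenin exceeded those after control siRNA by 0.07 ± 0.37 for FOXM1, 0.39 ± 0.52 for MYBL2 (DESeq2 adjusted p = 0.851), -0.25 ± 0.44 for TROAP and 0.14 ± 0.37 for WDR62. No gene was called in that three-way comparison by DESeq2 or edgeR, with 1747 genes at an unadjusted p-value below 0.05 by DESeq2.

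**Figure D3:**
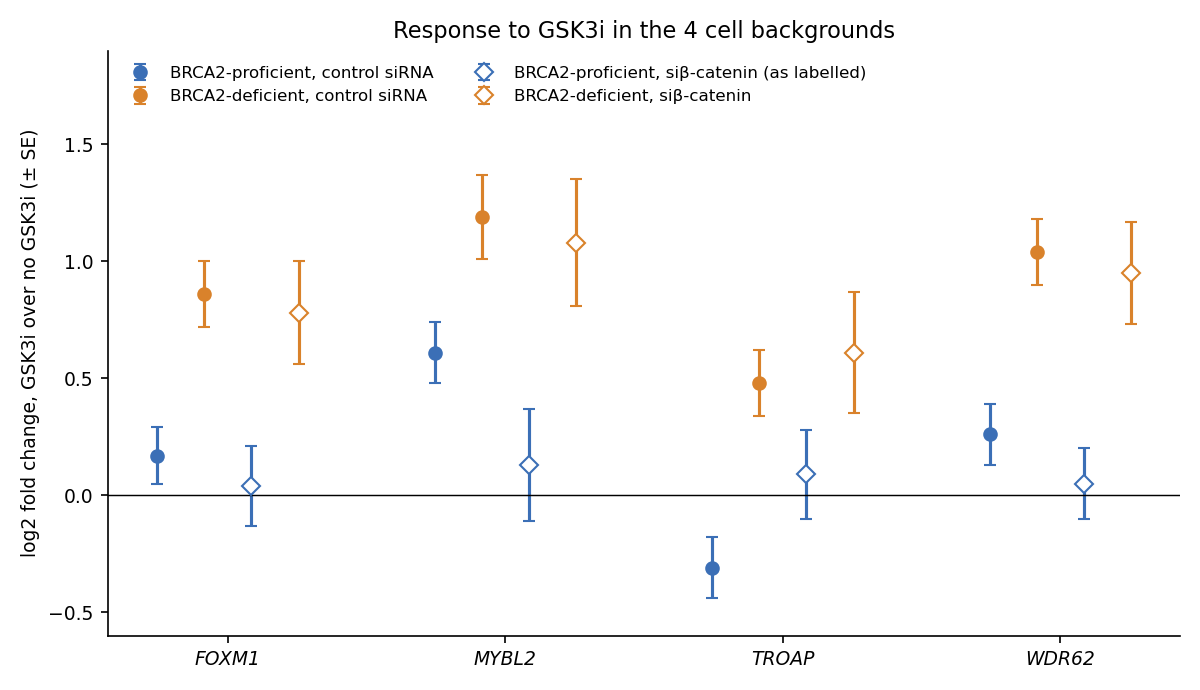
Log2 fold change with GSK3i (y axis; points, DESeq2 estimates; bars, SE) of the 4 genes in BRCA2-proficient (blue) and BRCA2-deficient (orange) cells after control siRNA (filled circles) and siβ-catenin (open diamonds), with every library as labelled. In BRCA2-deficient siβ-catenin cells the estimates are 0.61 to 1.08, and in BRCA2-proficient siβ-catenin cells 0.04 to 0.13. Without the 2 doubted libraries (not drawn) the latter are -0.09 for TROAP to 0.42 for MYBL2, with only replicate 3 left without GSK3i.

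The siβ-catenin libraries were also compared with control siRNA libraries at the same BRCA2 status and treatment. For MYBL2 the log2 fold change with siβ-catenin was 0.38 in BRCA2-proficient cells without GSK3i (DESeq2 adjusted p = 0.272), -0.10 with GSK3i (adjusted p = 0.825), -0.17 in BRCA2-deficient cells without GSK3i (adjusted p = 0.879) and -0.29 with GSK3i (adjusted p = 0.385). None passed, where 2.97%, 5.1%, 2.03% and 5.52% of all genes were called in these comparisons, and without the 2 doubted libraries the BRCA2-proficient values were 0.24 and 0.05. The first of these comparisons passed without BRCA2-proficient siβ-catenin replicate 3 (0.51, DESeq2 adjusted p = 0.00541), which leaves the doubted library alone in its group. The replicate numbers paired the libraries of all but the first of these comparisons. With the replicate as a block, MYBL2 was at -0.29 ± 0.09 in BRCA2-deficient cells with GSK3i (DESeq2 adjusted p = 0.00695), under the fold required. Blocked values were -0.28 without GSK3i there (DESeq2 adjusted p = 0.521) and -0.11 in BRCA2-proficient cells with GSK3i (adjusted p = 0.764). For the other 3 genes, whose control siRNA libraries chose them, the values without a block lay between -0.28 and 0.21. The lowest belonged to TROAP in BRCA2-deficient cells without GSK3i and was -0.72 without siβ-catenin replicate 3.

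The effect of BRCA2 depletion was examined next. In untreated cells the log2 fold change of BRCA2-deficient over BRCA2-proficient cells was -0.99 ± 0.17 for FOXM1, -1.02 ± 0.16 for TROAP and -0.81 ± 0.16 for WDR62, given without a test. MYBL2 fell by 0.60 ± 0.17 on the log2 scale (DESeq2 adjusted p = 0.00852), with no overlap between the groups, where 6.91% of genes were called and 4.14% were lower. It did not pass in edgeR (adjusted p = 0.0709), nor without untreated BRCA2-proficient replicate 2 (DESeq2 adjusted p = 0.463) or replicate 3 (adjusted p = 0.426), nor without untreated BRCA2-deficient replicate 2 (adjusted p = 0.222). With GSK3i the log2 fold change was -0.30 ± 0.10 for FOXM1, -0.22 ± 0.12 for TROAP and -0.02 ± 0.13 for WDR62. For MYBL2 it was -0.02 ± 0.15 (95% interval -0.31 to 0.27, DESeq2 adjusted p = 0.968), where 6.81% of genes were called.

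After siβ-catenin without GSK3i, all 4 genes were lower in BRCA2-deficient cells. FOXM1 fell by 1.35 ± 0.27 on the log2 scale (DESeq2 adjusted p = 6.28e-06), MYBL2 by 1.16 ± 0.34 (adjusted p = 0.00333), TROAP by 1.12 ± 0.31 (adjusted p = 0.00244) and WDR62 by 1.05 ± 0.27 (adjusted p = 0.000949). Here 27.4% of genes were called, 13.8% as lower. Without the doubted library, which leaves 1 BRCA2-proficient library that is taken to vary like the others, FOXM1 still passed (-1.38 ± 0.29, DESeq2 adjusted p = 5.07e-05) but MYBL2 (-1.02 ± 0.79, adjusted p = 0.388), TROAP (-1.19 ± 0.71, adjusted p = 0.233) and WDR62 (-1.0 ± 0.61, adjusted p = 0.247) did not. The same 3 calls were lost when the other BRCA2-proficient library, replicate 3, was left out, with DESeq2 adjusted p = 0.217, 0.268 and 0.167.

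After siβ-catenin with GSK3i, FOXM1 (-0.59 ± 0.17, DESeq2 adjusted p = 0.0112) and TROAP (-0.57 ± 0.19, adjusted p = 0.0393) were lower in BRCA2-deficient cells, where 7.74% of genes were called, 4.36% as lower. MYBL2 (-0.19 ± 0.20, 95% interval -0.58 to 0.20, DESeq2 adjusted p = 0.675) and WDR62 (-0.12 ± 0.15, 95% interval -0.42 to 0.18, adjusted p = 0.738) did not pass. Without the doubted library FOXM1 was at -0.68 ± 0.16 (DESeq2 adjusted p = 0.000659) and TROAP at -0.47 ± 0.19 (adjusted p = 0.0835). The FOXM1 call was lost without BRCA2-proficient replicate 1 or 3 or BRCA2-deficient replicate 2 (log2 fold changes -0.56, -0.53 and -0.51), and the TROAP call was lost without any of the 6 libraries but BRCA2-deficient replicate 3 (-0.63 to -0.46). In edgeR neither gene passed (adjusted p = 0.0565 and 0.104).

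The other genes of the pathway were described by lists, with their counts and medians beside the median of all genes, which was between -0.01 and 0.02 in each comparison below. The list of 54 late cell cycle genes, which act in G2 and mitosis, and the list of 29 measured G1/S genes, which act at the start and during DNA replication, hold none of the 4 members. With GSK3i after control siRNA, 9 of the 54 late genes fell in BRCA2-proficient cells and none rose, with a median log2 fold change of -0.18, where 26.1% of all genes were called in either direction. NUSAP1, a spindle microtubule protein, had the lowest adjusted p-value (-0.87 ± 0.14, DESeq2 adjusted p = 6.14e-09). In BRCA2-deficient cells 11 rose and 1 fell, with a median of 0.35, where 25.4% of all genes were called, 11.6% as higher. Counted in either direction, the share of the list called was not above that of all genes in either background. The lowest adjusted p-value among those that rose was that of the mitotic kinase gene AURKB (0.84 ± 0.17, DESeq2 adjusted p = 7.67e-06), and CDC25C, a phosphatase that activates CDK1, was the one that fell (-0.69 ± 0.23, adjusted p = 0.0111). The interaction was positive for 54 of 54 of these genes, with a median of 0.52, but none was called by edgeR or by DESeq2 without a replicate block, and 27 were below an unadjusted p-value of 0.05 in DESeq2.

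After siβ-catenin, GSK3i raised 23 of the 54 late genes in BRCA2-deficient cells and lowered none, with a median of 0.49, where 8.56% of all genes were called as higher. CKS2, a small subunit of cyclin-dependent kinases, had the lowest adjusted p-value (1.04 ± 0.19, DESeq2 adjusted p = 2.39e-06). The count was 28 with the replicate as a block, 19 in edgeR and 37 without BRCA2-deficient siβ-catenin replicate 3. In BRCA2-proficient siβ-catenin cells none was called by DESeq2 or edgeR, nor was any below an unadjusted p-value of 0.05 (median -0.06). DESeq2 called only 0.0529% of all genes there, with the 2 doubted libraries kept as labelled. Without the 2 doubted libraries, with replicate 3 alone left without GSK3i, the median was -0.29. The interaction was positive for 51 of 54, with a median of 0.60, and none was called by edgeR or by DESeq2 without a replicate block, with 26 below an unadjusted p-value of 0.05 in DESeq2. DESeq2 called 3 without the 2 doubted libraries and 16 without BRCA2-deficient siβ-catenin replicate 3. Relative to BRCA2-proficient cells, the late genes called were all lower in BRCA2-deficient cells, 47 of 54 in untreated cells, 14 with GSK3i, 52 after siβ-catenin and 45 after siβ-catenin with GSK3i. The medians were -0.95, -0.42, -1.36 and -0.80. Of all genes, DESeq2 called 4.14% as lower in untreated cells, 13.8% after siβ-catenin and 4.36% after siβ-catenin with GSK3i. With GSK3i after control siRNA it called 6.81% in either direction. In edgeR the counts were 30, 6, 52 and 30, and without the 2 doubted libraries the last 2 were 51 and 41 in DESeq2.

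Of the G1/S list, 4 of 29 genes rose with GSK3i after control siRNA in BRCA2-proficient cells (median 0.23), where 11.8% of all genes were called as higher, and 18 of 29 in BRCA2-deficient cells (median 0.71), where 11.6% were. None was called as lower. FEN1, the flap endonuclease of lagging-strand synthesis, had the lowest adjusted p-value in both, at 0.84 ± 0.16 (DESeq2 adjusted p = 3.77e-06) and 1.25 ± 0.18 (adjusted p = 1.44e-10). After siβ-catenin 22 of 29 rose in BRCA2-deficient cells (median 0.86), where 8.56% of all genes were called as higher. None was called in BRCA2-proficient cells by DESeq2 or edgeR, nor was any below an unadjusted p-value of 0.05. DESeq2 called only 0.0529% of all genes in that background, with the 2 doubted libraries kept as labelled. Without the 2 doubted libraries, with a single library left there without GSK3i, the median was -0.25. In BRCA2-deficient siβ-catenin cells CDC6, which loads the replicative helicase, rose by 1.32 ± 0.15 on the log2 scale (DESeq2 adjusted p = 1.85e-15). CDC6 had an interaction of 1.5 ± 0.27 (DESeq2 adjusted p = 0.000215). It was 1 of 9 G1/S genes called for the interaction after siβ-catenin by DESeq2, which called 0.439% of all genes there. Of the 9, edgeR called none. The count was 7 without the 2 doubted libraries and 17 without BRCA2-deficient siβ-catenin replicate 3. BRCA2-deficient cells had 20 of 29 lower and 1 higher when untreated (10 and 0 in edgeR), and 3 lower and 1 higher with GSK3i (2 and 0 in edgeR). DESeq2 called 4.14% of all genes as lower in the former comparison and 6.81% in either direction in the latter. As lower it called 13.8% after siβ-catenin and 4.36% after siβ-catenin with GSK3i. After siβ-catenin 28 of 29 were lower (28 in edgeR, and 28 in DESeq2 without the doubted library), and after siβ-catenin with GSK3i 12 were lower and 1 higher (6 and 0 in edgeR, and 14 and 1 in DESeq2 without the doubted library).

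**Figure D4:**
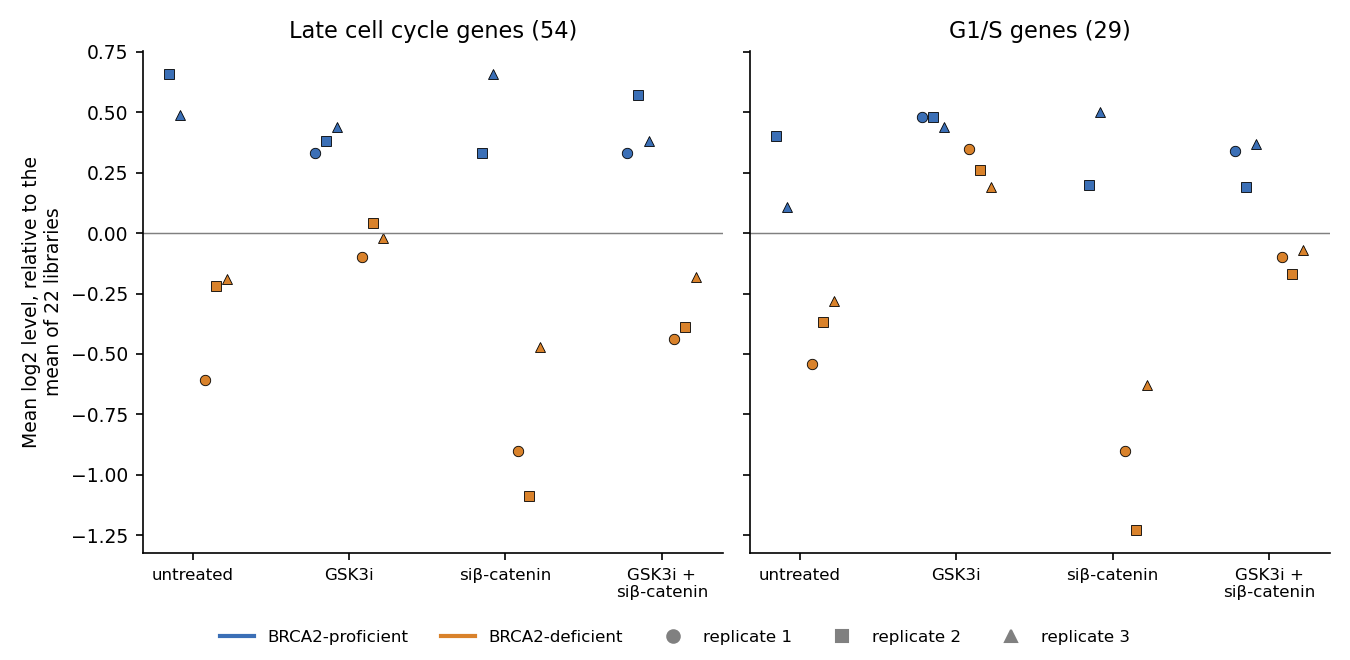
Mean log2 normalised count of the late cell cycle list (54 genes) and the G1/S list (29 genes) in each library, relative to the mean of the 22 libraries (y axis, log2), by group (x axis; blue, BRCA2-proficient; orange, BRCA2-deficient; marker shape, replicate). Replicates 1 and 2 of BRCA2-deficient siβ-catenin are the lowest libraries, at -0.90 and -1.09 for the late list and -0.90 and -1.23 for the G1/S list, with replicate 3 at -0.47 and -0.63.

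The partners of B-MYB and FOXM1 did not move as one group. A list of 14 genes holds those of the MuvB core, pocket proteins, E2F4, E2F5 and their dimer partners, with MYB, MYBL1 and the kinase gene DYRK1A. Of these 14 genes, GSK3i raised 3 and lowered 2 in BRCA2-deficient siβ-catenin cells. In that comparison 20.1% of all genes were called. RBL1, which encodes p107, rose by 0.75 ± 0.16 (DESeq2 adjusted p = 8.3e-05), the MuvB subunit gene LIN54 by 0.66 ± 0.21 (adjusted p = 0.0115) and the E2F dimer partner gene TFDP1 by 0.65 ± 0.16 (adjusted p = 0.000431). RBL2, which encodes p130, had a log2 fold change of -1.42 ± 0.20 (DESeq2 adjusted p = 9.58e-11), and TFDP2, the other dimer partner, one of -0.56 ± 0.17 (adjusted p = 0.00648). RBL2 was also lower with GSK3i after control siRNA, at -1.21 ± 0.17 in BRCA2-proficient (DESeq2 adjusted p = 1.45e-11) and -1.32 ± 0.30 in BRCA2-deficient cells. In all, 4 rose and 3 fell in the former and 5 rose and 2 fell in the latter, where 26.1% and 25.4% of all genes were called.

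A list of 12 kinases, cyclins and ubiquitin ligase subunits that act on FOXM1 or B-MYB includes CCNA2, CCNB1, CDK1 and PLK1 of the late list. With GSK3i in BRCA2-deficient siβ-catenin cells 5 of the 12 rose and 1 fell, where 20.1% of all genes were called. MELK, a kinase that phosphorylates FOXM1, rose by 0.81 ± 0.16 (DESeq2 adjusted p = 6.13e-06), and CDK1 (0.79 ± 0.19), CDK2 (0.64 ± 0.17), CDK4 (0.58 ± 0.16) and CCNB1 (0.61 ± 0.20) rose with it. CDK6 was lower (-0.60 ± 0.18, DESeq2 adjusted p = 0.00774). MELK was the 1 gene of this list called for the interaction after siβ-catenin (0.96 ± 0.24, DESeq2 adjusted p = 0.0297), and no gene of the list was called there without the 2 doubted libraries or in edgeR. After control siRNA 2 rose and none fell in each background, CCND1 (0.76 ± 0.13, DESeq2 adjusted p = 5.04e-08) and CDK4 (0.59 ± 0.14, adjusted p = 0.000141) in BRCA2-proficient cells. Of all genes 26.1% were called in BRCA2-proficient and 25.4% in BRCA2-deficient control siRNA cells.

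A list of 21 genes holds WDR62 partners, JNK kinase genes among them, and centrosome or spindle pole genes linked to primary microcephaly. It includes AURKA, ASPM and TPX2 of the late list. Of these 21 genes, GSK3i raised 4 and lowered none in BRCA2-deficient siβ-catenin cells, the centriole duplication genes SASS6 (0.76 ± 0.18) and PLK4 (0.90 ± 0.22), the mitotic kinase gene AURKA (0.51) and the kinetochore gene KNL1 (0.63). The median of the list was 0.20, and 20.1% of all genes were called in this comparison, 8.56% as higher. BYSL, which encodes bystin, rose with GSK3i in both backgrounds after control siRNA (1.18 ± 0.15, DESeq2 adjusted p = 4.07e-14, and 1.07 ± 0.18, adjusted p = 4.08e-08) and in BRCA2-deficient siβ-catenin cells (0.59 ± 0.17, adjusted p = 0.00371). TRO, which encodes trophinin, fell in BRCA2-proficient cells (-0.57 ± 0.17, DESeq2 adjusted p = 0.00309) and in BRCA2-deficient siβ-catenin cells (-0.56 ± 0.15, adjusted p = 0.00132). In BRCA2-deficient control siRNA cells its value of -0.49 ± 0.16 was just under the fold required.

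FOXM1, TROAP and WDR62 overlap or adjoin genes on the opposite strand, and the strand setting of the read counting is not given in the sources used here. RHNO1 overlaps FOXM1 by 917 bases and ITFG2 overlaps it by 2112, THAP8 overlaps WDR62 by 91 and TROAP-AS1 overlaps TROAP by 1341. TULP3 starts 49 bases from FOXM1. RHNO1 varied 1.8-fold over the 22 libraries, TULP3 1.44-fold, ITFG2 1.57-fold and THAP8 1.92-fold, against 4.05-fold for FOXM1 and 3.4-fold for WDR62. TROAP-AS1 stayed at 13.2 normalised counts or less. None of these neighbours was called in a GSK3i comparison or interaction where it was tested.

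Across all 22 libraries (Pearson's r of log2 normalised counts, given as a description of libraries that share groups), FOXM1 was most alike to ZWINT (0.99), KIFC1 (0.98), CENPN (0.97), PBK (0.97) and MELK (0.96), among the 11898 genes that averaged 100 normalised counts or more. MYBL2 was most alike to TUBG1 (0.98), XRCC3 (0.97), DNAJC9 (0.96), SUV39H1 (0.96) and PKMYT1 (0.96). TROAP was most alike to SPAG5, PLK1, KIFC1, RACGAP1 and CCNF, all at 0.96. For WDR62 they were PKMYT1 (0.97), DBF4B (0.96), FANCA (0.96), CHAF1A (0.95) and TACC3 (0.95). By the 8 group means, 3, 2, 1 and 2 of these 5 genes stayed among the nearest 5.

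Over the 12 BRCA2-deficient libraries, which include control siRNA libraries that entered the choice of FOXM1, TROAP and WDR62, r between the members was 0.90 to 0.99 for the 6 pairs and highest for FOXM1 with MYBL2. In the 10 BRCA2-proficient libraries, which also include such libraries, TROAP ran opposite to FOXM1 (-0.76), MYBL2 (-0.87) and WDR62 (-0.66). There r was 0.84 for FOXM1 with MYBL2, 0.78 for MYBL2 with WDR62 and 0.51 for FOXM1 with WDR62.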

How the data were processed

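Poly(A) RNA-seq was made from 22 libraries of H1299 cells. The authors aligned reads with HISAT2 2.0.4 to GRCh37, removed duplicates and counted unique reads on Ensembl genes with featureCounts 1.5.0 (versions from the submitters' processing notes), and deposited raw counts for 37908 genes, of which 29629 had a symbol. Each library held 18.9 to 29.3 M counts. The study describes its RNA-seq replicates as independent experiments, which the labels do not state.

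DESeq2 1.42.0 (R 4.3.3) was fitted to the groups of each of 15 comparisons (Wald test, Benjamini-Hochberg adjustment, no shrinkage). The study used another version of DESeq2 on pairs of groups and lists no interaction. Genes needed at most 3 libraries below 10 counts (interactions, 10 counts in at least 3 libraries). Intervals are 95%, and log2 fold changes carry the SE. edgeR 4.0.16 (quasi-likelihood, TMM), no filter, a replicate block, 1 model over 8 groups, TMM-scaled CPM and leaving out libraries were alternatives. The fits were tested on simulated data. Replicate numbers were taken to pair libraries where deviations from the group means correlated above 0.1 in each of at least 3 pairs, as with GSK3i in BRCA2-deficient siβ-catenin cells (0.43 to 0.61).

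The members, lists and tests were chosen with earlier results of these data known. Genes named were the members, label checks, neighbours within 1 kb, the 5 most alike genes per member, every gene of the short lists and the called gene of lowest adjusted p-value in each direction of the other lists, with PDCD4, the cell type markers and examples in the spindle list chosen after their values were seen. UHRF1 was the G1/S gene without a value. CD3E and PECAM1 were not matched, and 1 other marker is not reported here.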

Additional observations from a re-analysis of the deposited data

Results flagged for a closer look

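The response to GSK3i differed between BRCA2-deficient and BRCA2-proficient control siRNA cells by 0.68 on the log2 scale for FOXM1, by 0.78 for TROAP and by 0.77 for WDR62. These values chose the genes, so they are a description. Groups of 2 or 3 libraries were not searched for single libraries far from the others.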

How the results depend on the processing

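No value past the threshold changed direction in an alternative that was run. Leaving out the 2 doubted libraries, or BRCA2-deficient siβ-catenin replicate 3, was chosen after seeing the data. The former leaves only replicate 3 of BRCA2-proficient siβ-catenin cells without GSK3i, so counts of calls without the doubted libraries rest on it where that group enters. Leaving out single libraries was not run for the three-way comparison. Counts below are of genes called. For GSK3i in BRCA2-proficient siβ-catenin cells they were 0 in edgeR, 3 with the replicate block, 1 in the model over 8 groups and 1101 without the 2 doubted libraries. In edgeR they were 483 for BRCA2 depletion after siβ-catenin with GSK3i, 326 in untreated cells, 645 with GSK3i, and for siβ-catenin 183 and 267 with GSK3i in BRCA2-proficient and BRCA2-deficient cells and 1 and 0 without it. FOXM1 (-0.60, adjusted p = 0.0565) and TROAP (-0.58, adjusted p = 0.104) after siβ-catenin with GSK3i lost their calls in edgeR. The replicate block gave 2020 for BRCA2 depletion after siβ-catenin, and 189 and 527 for siβ-catenin in BRCA2-proficient and BRCA2-deficient cells, where the model over 8 groups gave 274 for the former. For the interaction after control siRNA the counts were 0 in edgeR, 94 with the block and 1 in the model over 8 groups, and after siβ-catenin 0, 264 and 722, with 42 without the 2 doubted libraries. The three-way comparison gave 16 with the block and 4 without these libraries. The block brought TROAP (0.68) with GSK3i in BRCA2-deficient siβ-catenin cells and MYBL2 (0.61, DESeq2 adjusted p = 0.0153) for the control siRNA interaction past the threshold. The model over 8 groups did so for TROAP (0.61, adjusted p = 0.0223) and for the WDR62 interaction after siβ-catenin (0.91, adjusted p = 0.0241). Without the doubted libraries MYBL2 (-1.02), TROAP (-1.19) and WDR62 (-1.0) lost the call for BRCA2 depletion after siβ-catenin, as did TROAP with GSK3i (-0.47). The block changed no other call of the 4 genes. With it, 9 of the 54 late and 8 of the 29 G1/S genes were called higher for the interaction after control siRNA, and 4 and 17 after siβ-catenin. The replicate numbers were not taken to pair the libraries of the GSK3i comparisons in BRCA2-proficient cells (correlations of deviations 0.09 to 0.14 after control siRNA and -0.42 to -0.27 after siβ-catenin) or of the interactions. Nor were they for BRCA2 depletion without GSK3i, where the correlations were -0.01 to 0.02 after siβ-catenin. In untreated cells these were 0.19 to 0.26, above 0.1, but there were only 2 pairs and the rule needs at least 3. The causes were not tested.

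Leaving out each library in turn, the counts for BRCA2 depletion ran from 181 to 2161 (untreated), 613 to 1302 (GSK3i), 2870 to 4883 (siβ-catenin) and 748 to 1593 (both). For GSK3i they ran from 2836 to 4274 and 3084 to 4350 after control siRNA, and from 3 to 28 and 2229 to 3576 after siβ-catenin, in BRCA2-proficient and BRCA2-deficient cells. For siβ-catenin they ran from 21 to 2039 and 83 to 530 without GSK3i, and 291 to 858 and 372 to 1038 with it, and for the interactions from 2 to 15 (control siRNA) and 12 to 914 (siβ-catenin). With GSK3i in BRCA2-deficient siβ-catenin cells the log2 fold changes ran from 0.58 to 1.06 for FOXM1, 0.79 to 1.48 for MYBL2, 0.40 to 1.04 for TROAP and 0.77 to 1.28 for WDR62, and their interactions from 0.54 to 1.03, 0.67 to 1.36, 0.32 to 0.96 and 0.73 to 1.24. BRCA2 depletion after siβ-catenin gave -1.64 to -1.14, -1.57 to -0.86, -1.55 to -0.90 and -1.38 to -0.86, and with GSK3i -0.69 to -0.51 for FOXM1 and -0.71 to -0.46 for TROAP. The FOXM1 interaction after control siRNA ran from 0.63 to 0.76. Groups of 2 or 3 libraries limit the precision of these levels.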
